A study of Ovis aries with 24 samples.

Results

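Liver messenger RNA was compared between 4 ventilated preterm lambs that received budesonide together with surfactant and 4 that received surfactant alone. These 8 livers were chosen by tissue and treatment label, with no measured value used, and are 8 of the 24 samples of the study. It also holds 12 samples of brain white matter, not analysed here. The other 4 samples are unventilated livers, which were used in the filter, the scaling and the estimate of spread. Both ventilated groups received intratracheal Poractant alpha, a surfactant prepared from pig lung, at 2.5 mL/kg. The budesonide group received budesonide, a synthetic glucocorticoid used for its strong action in the airways, at 0.25 mg/kg in addition. Each ventilated group held 3 females of 126 days of gestation and 1 male of 127 days, animal 054 with budesonide and animal 007 with surfactant, so sex and age coincide within the groups and are balanced between them. The unventilated lambs were 127 or 128 days old, 2 of them labelled male, and their levels are set beside the others without a test. Each library came from a separate animal. How long the lambs were ventilated, the route of budesonide, the breed, and any steroid given to the ewes are not given in the sources used here. The comparison asks what adding budesonide to surfactant changed in the liver.

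Glucocorticoids bind a receptor that rests in the cytoplasm with heat shock proteins and co-chaperones, then moves to the nucleus, where it switches genes on at its own binding sites and holds back genes driven by NF-kB, AP-1 and interferon regulatory factors. In liver the receptor is known for raising enzymes that turn amino acids into glucose, and the fetal liver uses the rise of cortisol near birth to start making glucose. The liver is also a filter for blood, lined by sinusoidal endothelial cells and Kupffer cells, its resident macrophages, which clear endotoxin and immune complexes.

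The libraries held 16.1 to 23.2 M counts, and 20139 to 20861 genes were detected in each. The hepatocyte markers ALB, AFP, APOA1, TTR and HNF4A were present in every liver and summed to 42392 to 67679 counts per M (CPM) with budesonide and 59766 to 66826 with surfactant. None of the 5 differed by test, and no marker of the other cell types was at 0 in all 8 livers. The neutrophil markers summed to 74.9 to 117 CPM with budesonide and 81.4 to 260 with surfactant, the lowest in animal 049 and the highest in 051, and the macrophage markers to 467 to 715 and 534 to 647 CPM. On the first principal component of the 8 livers (37.9% of the variance) the budesonide animals lay between -53.6 and -26.3 and the surfactant animals at 2.42 (007), 40.4 (032), 80.1 (049) and 43.6 (051). Surfactant animal 007 stood alone on the second component (22.8%), at -81.2 against -19.0 to 41.2 for the rest.

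Of 16824 genes tested, 1994 differed between the groups (11.9%), 674 higher (4.01%) and 1320 lower (7.85%) with budesonide. The shares of list members given below are to be read against 4.01% higher and 7.85% lower. The test was edgeR's quasi-likelihood test, and a gene was called where its p, adjusted by Benjamini-Hochberg across all 16824, was under 0.05. Of the called genes 1523 had CPM ranges that did not overlap between the groups; among all genes tested, called or not, the ranges were apart in 14.4%. Falls were also larger in the reported fit: 214 genes were lower by at least 2 on the log2 scale and 78 were higher by that much. The largest falls depended on surfactant animals 049 and 051. Without both, the log2 change of OLR1 went from -7.50 to -4.07, IL1B from -5.55 to -2.81 and PTGS2 from -5.70 to -1.36. Of the largest rises, GHRHR went from 5.28 to 4.97 and OSR2 from 4.62 to 5.30. The median change of all genes tested was -0.01 on the log2 scale. The counts rest on the spread taken from all 12 livers; a fit of the 8 ventilated livers alone called 288 higher and 596 lower. The same 8 livers with sex as a covariate, a fit that differs from the reported one in both samples and covariate and is called the sex fit below, gave 223 and 409. DESeq2 called 1123 and 2047. Without a single animal, the calls ranged from 325 higher and 682 lower (budesonide animal 031 left out) to 1074 higher without surfactant animal 051 and 1790 lower without surfactant animal 007. The other single animals that moved a count by over 1.5 times were budesonide animal 048 (354 higher and 701 lower without it) and surfactant animals 032 (379 higher) and 049 (341 higher and 786 lower). Without 007 the higher count was 1036. A total of 510 genes (3.03%), 165 higher and 345 lower, were called as reported and under each of 15 alternative settings that could test them, and below these are said to have kept the call throughout.

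**Figure D1:**
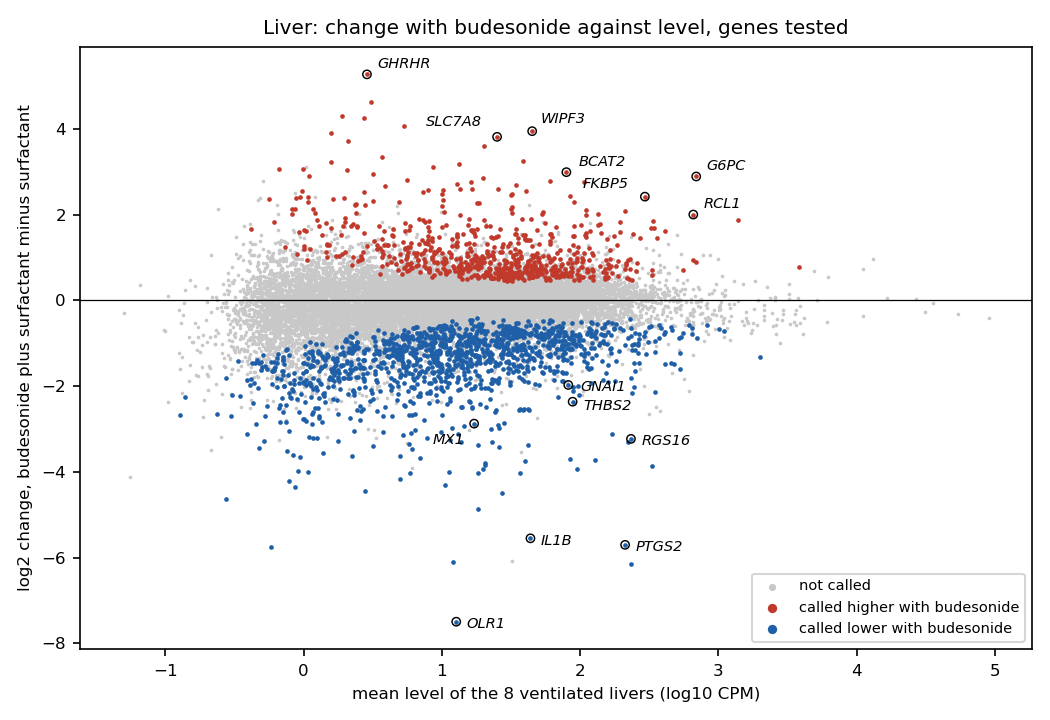
Change with budesonide against level in liver. Each point is 1 of the 16824 genes tested, placed by its mean level over the 8 ventilated livers (log10 CPM, x axis) and its log2 change, budesonide minus surfactant (y axis); red points are the 674 genes called higher, blue points the 1320 called lower, and circled genes are named. The blue points reach farther from 0 than the red ones, down to OLR1 at -7.50, which was at -4.07 without surfactant animals 049 and 051 together.

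The gene that differed with the smallest p was WIPF3, which encodes an actin regulator of the WASP-interacting family. In the order of animals 031, 048, 050 and 054 its level was 77.9, 81.1, 99.5 and 79.4 CPM with budesonide, and in the order of 007, 032, 049 and 051 it was 5.89, 4.38, 5.55 and 5.97 CPM with surfactant; the same orders are used below. Every budesonide liver was more than 10 times above every surfactant liver, a change of 3.95 ± 0.16 (log2 difference ± SE; edgeR adjusted p = 5.34e-08). Unventilated livers held 2.37 ± 0.231 CPM (mean ± SD, n = 4, here and below). SLC7A8, a carrier of neutral amino acids, stood at 34.9, 41.7, 57.3 and 53.5 CPM with budesonide against 4.34, 1.68, 2.61 and 4.58 with surfactant, a 14.2-fold rise (log2 3.82 ± 0.36, edgeR adjusted p = 0.000311). DGKA, a kinase that converts the lipid messenger diacylglycerol, rose from 6.34 ± 1.48 to 30.8 ± 2.45 CPM (log2 difference 2.28, edgeR adjusted p = 0.000107). RCL1, a factor in ribosomal RNA processing, rose from 262 ± 51.7 to 1053 ± 185 CPM (log2 difference 2.01, edgeR adjusted p = 0.000327). Smaller sets of counts lay behind the largest folds: GHRHR, the receptor for growth hormone-releasing hormone, was at 12.8, 5.33, 3.26 and 1.03 CPM with budesonide against 0 to 0.222 with surfactant (log2 5.28 ± 0.85, edgeR adjusted p = 0.00351). The transcription factor OSR2 was at 1.54 to 10.4 CPM against 0.0600 to 0.412 (log2 4.62, edgeR adjusted p = 0.00179). All of these kept the call throughout, and their group ranges were apart.

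Among the genes that fell with the smallest p, several belong to cells of the sinusoid or to phagocytes. FCGR3A, a receptor for immunoglobulin G on natural killer cells and macrophages, was at 19.2, 20.7, 22.1 and 33.8 CPM with budesonide against 81.9, 94.3, 152 and 127 with surfactant, 4.75-fold lower (log2 -2.25 ± 0.23, edgeR adjusted p = 0.000373). CYBB, the catalytic subunit of the phagocyte oxidase, fell from 60.1 ± 6.64 to 22.6 ± 3.86 CPM (log2 difference -1.41, edgeR adjusted p = 0.000781). The macrophage transcription factor TFEC (-1.65) and GPR182, a receptor of sinusoidal endothelium (-1.5), fell as well (edgeR adjusted p = 0.00058 and 0.000616). In these 4 genes the budesonide livers were also below the unventilated ones, whose means were 72.1, 48.7, 21.6 and 22.8 CPM in the same order. GNAI1, an inhibitory G protein subunit, showed another order: 131 ± 25.8 CPM with surfactant, 33.3 ± 8.06 with budesonide and 20.4 ± 2.34 unventilated (log2 -1.97, edgeR adjusted p = 0.000373). NADK2, the mitochondrial NAD kinase, fell from 97.1 ± 20.1 to 31.2 ± 3.15 CPM (log2 difference -1.64, edgeR adjusted p = 0.000373). These 6 genes kept the call throughout with ranges apart. In bulk tissue, fewer cells of a type and less RNA of a gene in each cell cannot be told apart.

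Genes induced by the glucocorticoid receptor rose in part. Of 54 such genes tested, 10 were higher and 3 lower, 18.5% and 5.56% against 4.01% and 7.85% of all genes; their median change was 0.08. FKBP5, a co-chaperone that the receptor induces and that lowers its affinity for hormone, stood at 473, 523, 526 and 457 CPM with budesonide against 87.6, 61.9, 69.0 and 151 with surfactant. The clock gene PER1 was at 63.4 to 101 CPM against 21.7 to 50.7, and glutamine synthetase, GLUL, at 330 to 422 against 91.5 to 164. Those 3 kept the call throughout (edgeR adjusted p = 0.00168, 0.00692 and 0.0012). The count of higher members was 4 without budesonide animal 031 or from the ventilated livers alone, and 5 without budesonide animal 048 or surfactant animal 032. The count of lower members was 9 without surfactant animal 007 and 1 from the ventilated livers alone or without any 1 of animals 031, 048 and 049. MERTK, a receptor through which macrophages take up dying cells, is on the list and moved the other way, from 39.1 ± 8.42 to 15.3 ± 2.44 CPM, with the call kept throughout (log2 -1.35, edgeR adjusted p = 0.00289).

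Several textbook targets did not pass the test between the ventilated groups, and KLF9, SGK1 and PDK4 were above every unventilated liver with surfactant alone. KLF9, a transcription factor, was at 113 to 204 CPM with budesonide and 56.3 to 111 with surfactant, against 14.4 to 36.1 unventilated (log2 0.71 ± 0.30, edgeR adjusted p = 0.138). SGK1, a kinase, was at 338, 215, 325 and 143 CPM against 129, 183, 89.6 and 195 with surfactant (18.3 to 68.6 unventilated; log2 0.77, edgeR adjusted p = 0.213). PDK4, which shuts pyruvate out of mitochondrial oxidation, was at 4298 to 7129 CPM against 2195 to 6470, with the surfactant maximum in animal 051, and it was called without that animal (log2 0.68, edgeR adjusted p = 0.155; 0.0132 without 051). For TXNIP, an inhibitor of glucose uptake, the budesonide livers held 877 to 1259 CPM and the surfactant livers 205 to 463 except animal 007 at 1012, without which it was called (log2 1.05, edgeR adjusted p = 0.0903; 0.00315 without 007). The mean log2 CPM of the whole list was 6.21 to 6.55 in the budesonide livers and 5.62, 5.75, 6.48 and 6.30 in surfactant animals 007, 032, 049 and 051, so animals 049 and 051 lay inside the budesonide range.

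The receptor itself did not differ by test. NR3C1, the glucocorticoid receptor, was at 61.1 ± 14.7 CPM with budesonide and 70.6 ± 12.1 with surfactant (log2 -0.21 ± 0.20, edgeR adjusted p = 0.51), against 101 ± 17.2 unventilated. HSD11B1, which regenerates active cortisol in liver, was at 184 ± 44.3 and 198 ± 48.0 CPM (log2 difference -0.11, edgeR adjusted p = 0.843). HSD11B2, which inactivates cortisol, had too few counts to be tested, at 0.0573 to 0.349 CPM in the 8 livers. Of 25 receptor, chaperone and cortisol-handling genes 2 were lower (8.0%, against 7.85% of all genes) and none higher (median -0.21). The lower count was 1 without any 1 of budesonide animals 031, 048 and 054 and surfactant animals 032 and 049, and 3 without budesonide animal 050 or surfactant animal 007 or 051. The member that kept the call throughout was SERPINA6, corticosteroid-binding globulin, the cortisol carrier that hepatocytes secrete into plasma. It stood at 51.9, 72.3, 42.4 and 70.4 CPM with budesonide against 150, 219, 163 and 119 with surfactant, 2.75-fold lower with no overlap (log2 -1.46 ± 0.22, edgeR adjusted p = 0.00218). The unventilated livers lay between, at 76.7 to 103 CPM.

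**Figure D2:**
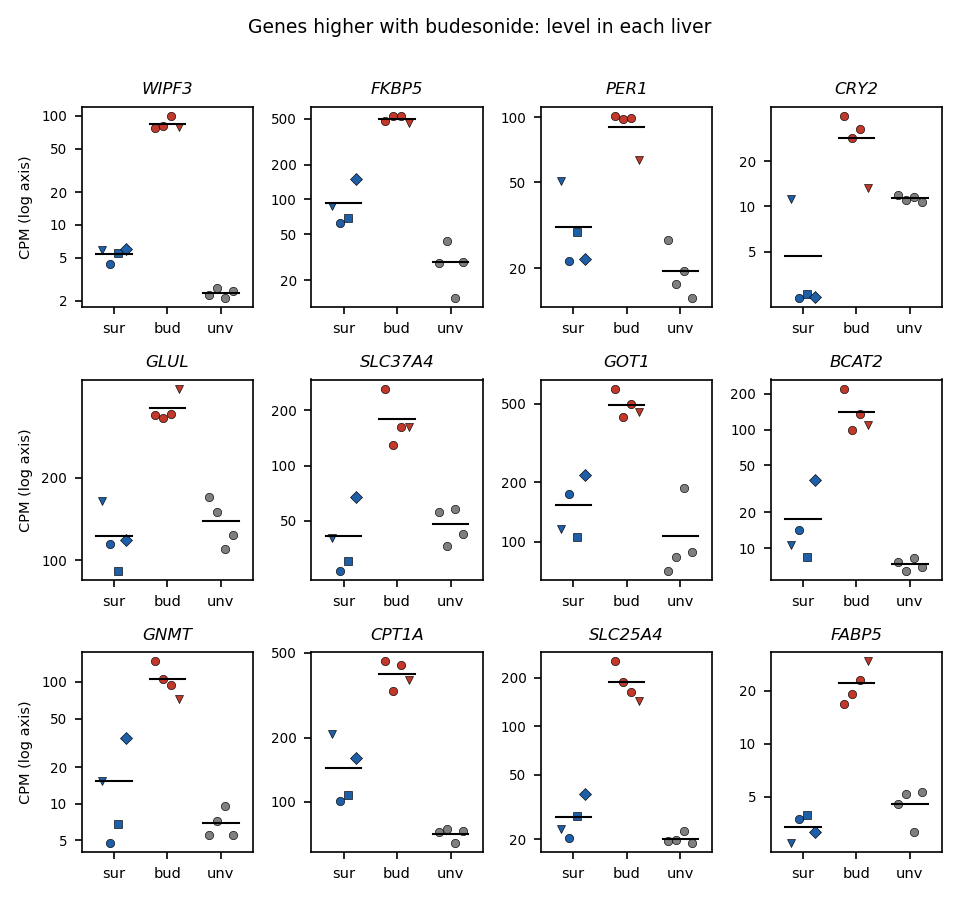
Level of 12 genes that were higher with budesonide, in CPM on log axes, in surfactant (sur, blue), budesonide (bud, red) and unventilated (unv, grey) livers. Each symbol is 1 liver, triangles are the 127-day males 007 and 054, squares and diamonds are surfactant animals 049 and 051, and bars are group means. In each panel the 4 budesonide livers lie above all 4 surfactant livers.

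Genes of glucose output rose in part. Of 29 gluconeogenesis and glucose release genes 6 were higher and 2 lower, 20.7% and 6.90% against 4.01% and 7.85% of all genes. Their median change was 0.04. SLC37A4, which carries glucose 6-phosphate to the phosphatase inside the endoplasmic reticulum, was at 263, 129, 162 and 163 CPM with budesonide against 40.4, 26.7, 30.3 and 67.8 with surfactant, 4.34-fold higher (log2 2.12 ± 0.31, edgeR adjusted p = 0.00201). G6PC, the phosphatase itself, was at 2588, 692, 1333 and 253 CPM against 319, 153, 73.4 and 109. Its call (log2 2.89 ± 0.61, edgeR adjusted p = 0.0118) held without any single animal but not without animals 049 and 051 together (0.0696) or in the sex fit (0.0846, against 0.0439 from the ventilated livers alone), and budesonide animal 054, at 253 CPM, lay below surfactant animal 007. GOT1, the cytosolic aspartate aminotransferase that feeds carbon into the pathway, rose from 153 ± 52.1 to 493 ± 74.2 CPM (log2 difference 1.69, edgeR adjusted p = 0.00689). PCK1, the committed step, did not follow: it was at 978, 669, 874 and 288 CPM against 611, 520, 886 and 586 (log2 0.11 ± 0.41, edgeR adjusted p = 0.882). Cytosolic glycerol 3-phosphate dehydrogenase, GPD1, fell from 16.6 ± 2.51 to 6.81 ± 1.95 CPM (log2 difference -1.28, edgeR adjusted p = 0.00707). SLC37A4, GOT1 and GPD1 kept the call throughout. The higher count was 3 without any 1 of budesonide animals 031 and 048 and surfactant animals 032 and 049; the lower count was 6 without surfactant animal 007 and 1 without budesonide animal 031 or 054 or surfactant animal 049. The ventilated livers alone gave 3 and 1. PFKFB4, which sets the regulator fructose 2,6-bisphosphate, rose from 12.6 ± 2.26 to 34.5 ± 9.51 CPM and kept the call throughout (log2 1.45, edgeR adjusted p = 0.0044).

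Amino acid enzymes moved in both directions. Of 51 breakdown genes 10 were higher and 8 lower (19.6% and 15.7%), around a median of -0.22. BCAT2, the mitochondrial transaminase of branched-chain amino acids, was at 221, 99.8, 135 and 109 CPM with budesonide against 10.7, 14.3, 8.44 and 37.4 with surfactant, 7.98-fold higher (log2 2.99 ± 0.43, edgeR adjusted p = 0.00182). GNMT, which consumes S-adenosylmethionine to methylate glycine, rose from 15.3 ± 13.5 to 105 ± 31.9 CPM (log2 difference 2.78, edgeR adjusted p = 0.00675). The ornithine aminotransferase OAT was at 22.1 to 52.7 CPM against 9.84 to 18.4 (log2 1.68, edgeR adjusted p = 0.00641), and CTH, which releases cysteine from cystathionine, at 156, 65.6, 160 and 157 against 51.3, 36.2, 34.4 and 66.7 (log2 1.51, edgeR adjusted p = 0.00956). Urocanate hydratase, UROC1, a step of histidine breakdown, went the other way, from 124 ± 30.9 to 61.4 ± 5.65 CPM (log2 difference -1.01, edgeR adjusted p = 0.00526). These 5 kept the call throughout, and in all but CTH, where budesonide animal 048 lay just below surfactant animal 051, the ranges were apart. The count of higher members was 4 without any 1 of budesonide animals 031 and 048 and surfactant animals 032 and 049, and 6 without budesonide animal 050. The lower count was 4 without budesonide animal 031 or 048, 5 without budesonide animal 054 or surfactant animal 007 or 049, and 13 without surfactant animal 051. From the ventilated livers alone 4 were higher and 5 lower, and in the sex fit 4 and 1.

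In ammonia handling the direction differed between genes. Of 25 urea cycle and glutamine genes 4 were higher (GLUL, OAT, NAGS and ARG2) and 2 lower (OTC and SAT1), with a median of 0.08, so 16% were higher against 4.01% of all genes. GLUL and OAT kept the call throughout. ARG2, the mitochondrial arginase, was at 702, 291, 940 and 171 CPM against 78.5, 97.3, 189 and 220 (log2 1.85, edgeR adjusted p = 0.0283), and its call ended without any 1 of budesonide animals 031 and 050 and surfactant animals 032 and 049 (0.0534 to 0.0776). NAGS, which makes the activator of the first urea cycle enzyme, was at 179, 259, 174 and 96.3 CPM against 35.0, 12.2, 89.7 and 39.6. Its call (log2 2.00, edgeR adjusted p = 0.0198) ended without budesonide animal 048 (0.0578) and in the ventilated livers alone (0.0561). The number of lower members was 0 without budesonide animal 031, 048 or 054 or surfactant animal 049. The ventilated livers alone gave 2 higher and 0 lower.

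Single lipid genes moved in both directions, while most members of the lipid lists were not called. Of 38 fatty acid oxidation and ketogenesis genes 3 were higher and 3 lower (7.89% each, against 4.01% and 7.85% of all genes; median -0.04). Of 31 synthesis genes 3 were higher and 1 lower (9.68% and 3.23%, median -0.22), and of 43 lipid droplet, uptake and lipoprotein genes 5 and 3 (11.6% and 6.98%, median -0.20). CPT1A, the gate for fatty acid entry into mitochondria, stood at 457, 333, 436 and 372 CPM with budesonide against 208, 102, 108 and 160 with surfactant (log2 1.47 ± 0.22, edgeR adjusted p = 0.00209). FABP5, a cytosolic fatty acid-binding protein, rose from 3.38 ± 0.554 to 22.2 ± 5.50 CPM (log2 difference 2.71, edgeR adjusted p = 0.000145), and its relative FABP4 was at 2.24 to 4.60 CPM against 0 to 0.445 (log2 4.29, edgeR adjusted p = 0.00436). FADS1, a desaturase of polyunsaturated fatty acids, rose from 96.6 ± 21.6 to 293 ± 79.6 CPM (log2 difference 1.60, edgeR adjusted p = 0.00179). Outside these lists, SLC25A4, the mitochondrial exchanger of ADP and ATP, was at 253, 187, 163 and 143 CPM against 23, 20.2, 27.7 and 38.2, 6.83-fold higher (log2 2.77 ± 0.23, edgeR adjusted p = 0.000107). AQP7, a glycerol channel, rose 2.90-fold (log2 1.54, edgeR adjusted p = 0.0119). ACACB, which makes the malonyl-CoA that inhibits CPT1A, fell from 15.8 ± 7.98 to 3.81 ± 1.36 CPM (log2 difference -2.05 ± 0.35, edgeR adjusted p = 0.00449). The acyl-CoA synthetase ACSL5 fell too (-0.89, edgeR adjusted p = 0.00906). All 8 kept the call throughout with ranges apart.

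The counts of these lists moved with single animals. Without surfactant animal 051 the higher and lower counts were 8 and 5 for oxidation, 3 and 6 for synthesis and 6 and 9 for the droplet and lipoprotein list, and without surfactant animal 007 they were 5 and 4, 3 and 4, and 6 and 7. Without budesonide animal 031 they were 1 and 1, 2 and 1, and 3 and 0; without surfactant animal 049 they were 2 and 1, 2 and 1, and 4 and 1. The ventilated livers alone gave 1 and 2, 2 and 1, and 3 and 1. FASN, fatty acid synthase, was at 28.6 to 33.9 CPM in the budesonide livers and 55.4 to 65.9 in surfactant animals 007, 032 and 049, but 28.9 in 051 (log2 -0.71, edgeR adjusted p = 0.0597; 0.00634 without 051). Sterol genes had 1 of 35 higher and 5 lower (2.86% and 14.3%, median -0.30). The lower count was 2 from the ventilated livers alone or without animal 048 or 032, 3 without 031 or 049 and 8 without 007; the higher count was 0 without budesonide animal 048 and 2 without 054 or 051. Among them SOAT2, which esterifies cholesterol in hepatocytes, was at 2.58 to 7.33 CPM against 87.1, 36.2, 33.2 and 4.12, the last again animal 051 (log2 -2.99, edgeR adjusted p = 0.0144; 0.0498 from the ventilated livers alone and 0.0846 in the sex fit).

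Receptors and transporters that handle bile acids and drugs fell in part. Of 33 bile acid, drug metabolism and organic ion transporter genes 12 were lower (36.4%, against 7.85% of all genes) and 1 was higher, with a median change of -0.72. The aryl hydrocarbon receptor, AHR, which drives genes that clear foreign compounds, was at 12.2, 9.86, 9.48 and 14.9 CPM with budesonide against 25.5, 31.0, 36.5 and 31.1 with surfactant (log2 -1.42 ± 0.22, edgeR adjusted p = 0.00303). SLC22A7, an organic anion importer, fell from 84.6 ± 23.2 to 34.5 ± 10.5 CPM, where unventilated livers held 356 ± 19.7 (log2 -1.29, edgeR adjusted p = 0.00596). The importer SLCO2B1 (-1.16, edgeR adjusted p = 0.0131) and the basolateral exporter ABCC3 (-1.18, edgeR adjusted p = 0.00458) fell by similar factors. AQP8, a water channel of hepatocytes counted in another list, was at 63.8, 64.4, 41.7 and 69.5 CPM against 254, 237, 147 and 75.3 (log2 -1.57, edgeR adjusted p = 0.0143). The bile acid receptor FXR, NR1H4, fell from 52.0 ± 13.2 to 25.6 ± 6.12 CPM (log2 difference -1.02, edgeR adjusted p = 0.0139) and lost the call only in the sex fit (0.0593, against 0.0368 from the ventilated livers alone). EPHX2, soluble epoxide hydrolase, was the 1 member that rose, from 162 ± 72.8 to 524 ± 91.8 CPM (log2 difference 1.69, edgeR adjusted p = 0.00274). AHR, SLC22A7, SLCO2B1, ABCC3, AQP8 and EPHX2 kept the call throughout. The count of 12 was 6 without budesonide animal 031 and 7 without budesonide animal 048. It was also 7 from the ventilated livers alone, and 4 in the sex fit.

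Interferon-stimulated genes had the largest share of lower members among the 51 lists: 21 of 41 were lower (51.2%, against 7.85% of all genes) and none was higher, with a median change of -1.05. The count ranged from 15 to 26 when 1 animal was left out at a time, and 10 of the 21 kept the call throughout. Without surfactant animals 049 and 051 together the count was 14 and the median -0.67. MX2, a GTPase that blocks viruses at the nuclear pore, stood at 1.86, 1.83, 1.63 and 3.34 CPM with budesonide and at 17.9, 16.9, 16.3 and 31.2 with surfactant. IFI16, a sensor of DNA, was at 2.27 to 5.45 CPM against 12.2 to 28.0 (log2 -2.27 ± 0.33, edgeR adjusted p = 0.00179). SP110, a nuclear body protein, fell from 47.1 ± 2.70 to 18.8 ± 3.26 CPM (log2 difference -1.33, edgeR adjusted p = 0.00082). Surfactant animals 007 and 032, which lay low in the cytokine genes described below, were at 16.9 CPM or more of MX2 and 44.0 or more of SP110, above every budesonide liver. Unventilated livers held these transcripts too, at 23 ± 12.3 CPM for MX2, 16.2 ± 4.43 for IFI16 and 30.1 ± 4.42 for SP110. Chosen after their values were seen, PARP14 (-1.25), PARP9 (-0.89), GBP5 (-1.96), XAF1 (-1.62), IFI44L (-1.65) and OAS2 (-1.58) also kept the call throughout (edgeR adjusted p = 0.00419 to 0.0117). Members of the MX, OAS, IFIT and GBP families have near copies in the genome, and how reads shared by copies were counted is not given in the sources used here.

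The genes that sense nucleic acid and pass the interferon signal fell with them in part. Of 37 interferon sensing and signalling genes 11 were lower and none higher (29.7%, median -0.52). DHX58, the sensor LGP2, was at 2.39, 3.15, 1.98 and 3.15 CPM against 8.06, 5.34, 9.22 and 11 (log2 -1.66, edgeR adjusted p = 0.00449). ZBP1, a sensor of Z-form nucleic acid, fell from 3.80 ± 0.734 to 0.850 ± 0.368 CPM (log2 difference -2.15, edgeR adjusted p = 0.00526). NLRC5, which activates class I antigen presentation genes, fell 3.26-fold (log2 -1.71, edgeR adjusted p = 0.00532), and IRF8, a factor of macrophages and dendritic cells, 2.84-fold (log2 -1.51, edgeR adjusted p = 0.00935). These 4 kept the call throughout. The count of 11 was 6 without budesonide animal 031 or 050 or surfactant animal 049 and 5 without budesonide animal 048, without animals 049 and 051 together or in the sex fit; without surfactant animal 051 there was 1 member called higher. Of 22 antigen processing and presentation genes 8 were lower (36.4%, median -0.50). That count was 3 without budesonide animal 031 or surfactant animal 049, 2 without 048, 4 without 050, and 0 without animals 049 and 051 together. A single member was lower from the ventilated livers alone and 0 in the sex fit. CIITA, the switch for class II genes, was at 1.05, 1.09, 0.931 and 1.29 CPM against 1.67, 2.40, 8.0 and 5.71 (log2 -2.03, edgeR adjusted p = 0.0114), and lost the call only in the sex fit (0.0676, against 0.0438 from the ventilated livers alone) or without animals 049 and 051 together (0.0591).

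**Figure D3:**
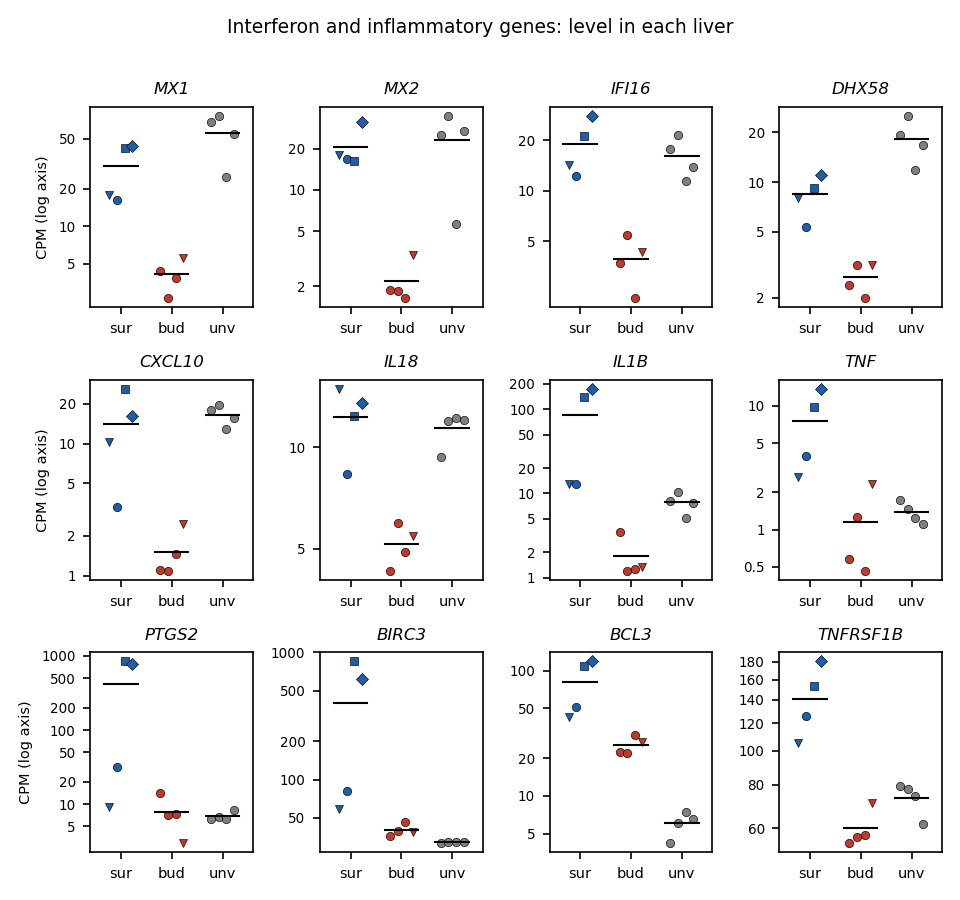
Level of 12 interferon and inflammatory genes in CPM on log axes, in surfactant (sur, blue), budesonide (bud, red) and unventilated (unv, grey) livers. Each symbol is 1 liver, triangles are the males 007 and 054, squares and diamonds are surfactant animals 049 and 051, and bars are group means. In the panels of IL1B, PTGS2 and BIRC3 the square and the diamond stand far above the other surfactant livers, while in MX2 all 4 surfactant livers are at 16.3 CPM or more.

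Cytokine and NF-kB genes were lower in part with budesonide, with the surfactant livers split. The cytokine genes IL6 and CXCL8 had log2 changes of -6.08 and -4.02, but 0.99 and 1.09 without surfactant animals 049 and 051 together. Of 21 IL-6 family and SOCS genes 3 were lower and none higher (14.3% lower, median -0.04), and 0 were lower without that pair. Of 34 NF-kB and TNF system genes 14 were lower (41.2%) and none higher, with a median of -0.91, and the lowest count without a single animal was 11. Their mean log2 CPM was 4.11 to 4.40 in the budesonide livers, 4.35 and 4.58 in surfactant animals 007 and 032, and 5.65 and 5.83 in 049 and 051. BIRC3, an inhibitor of apoptosis that NF-kB induces, was at 58.5, 81.1, 850 and 613 CPM with surfactant and 36.1, 39.6, 46.5 and 39.1 with budesonide (log2 -3.31 ± 0.69, edgeR adjusted p = 0.0112; 0.0423 from the ventilated livers alone and 0.0772 in the sex fit). PTGS2, of the adhesion and prostaglandin list, is the inducible cyclooxygenase that glucocorticoids are known to repress. It was at 9.28, 31.6, 851 and 766 CPM against 14.2, 7.17, 7.45 and 2.96, so surfactant animal 007 lay inside the budesonide range (log2 -5.70 ± 1.18, edgeR adjusted p = 0.011; 0.0407 from the ventilated livers alone and 0.0581 in the sex fit). Without animals 049 and 051 together PTGS2 was not called (0.122), and of the NF-kB and TNF system genes 7 were lower and 3 higher. The ventilated livers alone gave 10 lower and the sex fit 3. TNF was at 2.67, 3.96, 9.72 and 13.7 CPM against 0.582, 1.26, 0.465 and 2.32 and was likewise not called without both (log2 -2.71, edgeR adjusted p = 0.0115; 0.0804 without both, 0.0408 from the ventilated livers alone, 0.0706 in the sex fit). The summed neutrophil markers were lowest in 049 (81.4 CPM) and highest in 051 (260 CPM) among the surfactant livers. What part neutrophil content has in the split was not tested. Of 24 leukocyte adhesion, prostaglandin and nitric oxide genes 10 were lower and 1 higher (41.7% and 4.17%, median -0.83), and the lower count was 5 without budesonide animal 031 or 048 and 6 without surfactant animal 049 or without 049 and 051 together. The 1 higher member, ARG2 described above, was not called without any 1 of budesonide animals 031 and 050 and surfactant animals 032 and 049; without 007 there were 2 higher. From the ventilated livers alone 0 were higher and 7 lower (0 and 4 in the sex fit). ITGAL, the leukocyte integrin LFA-1 chain, fell from 10.7 ± 1.23 to 5.76 ± 0.817 CPM and prostacyclin synthase, PTGIS, from 47.4 ± 10 to 22.0 ± 3.30, both with the call kept throughout (log2 -0.89 and -1.11, edgeR adjusted p = 0.00829 and 0.00346).

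Other cytokine and receptor genes kept the call throughout, also without animals 049 and 051 together, where several had smaller changes. TNFRSF1B, the second TNF receptor, was at 54.3, 56.7, 57.5 and 71.1 CPM against 105, 126, 153 and 181 (log2 -1.24 ± 0.18, edgeR adjusted p = 0.00179). BCL3, an atypical inhibitor of NF-kB, fell from 80.5 ± 38.9 to 25.5 ± 4.18 CPM, against 6.07 ± 1.36 unventilated (log2 -1.66, edgeR adjusted p = 0.00735; log2 -0.89 without that pair). IL18, a cytokine of the inflammasome, fell from 12.3 ± 2.83 to 5.16 ± 0.716 CPM, and IL1RL1, the receptor of the related cytokine IL-33, from 13.1 ± 2.52 to 5.42 ± 0.730 (log2 -1.25 and -1.27, edgeR adjusted p = 0.00329 and 0.00218). IL1B was lower even against animals 007 and 032, at 1.20 to 3.43 CPM against 12.9 and 12.8, and the budesonide livers were also below the unventilated ones (5.12 to 10.4 CPM; log2 -5.55 ± 0.88, edgeR adjusted p = 0.00329; log2 -2.81 without the pair). CXCL10, a chemokine induced by interferon, was at 1.09 to 2.44 CPM against 10.3, 3.30, 26.1 and 16.2 (log2 -3.20, edgeR adjusted p = 0.00351; log2 -2.16 without the pair). CXCL9, another such chemokine, was at 3.61 to 7.27 against 9.48 to 20 (log2 -1.51, edgeR adjusted p = 0.0113; 0.0499 without the pair). Of 21 IL-1 and IL-18 family genes 6 were lower (28.6%, median -0.53), of 23 chemokines and receptors 9 (39.1%, median -1.07), and none was higher in either list. The chemokine count was 4 without budesonide animal 031 or from the ventilated livers alone and 5 without surfactant animal 049; without surfactant animal 051, 2 members of the first list and 1 of the second were higher.

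NFKBIA, the inhibitor of NF-kB that both NF-kB and the glucocorticoid receptor induce, had 1 pair of surfactant livers on each side of the budesonide livers. It was at 139, 137, 125 and 128 CPM with budesonide and at 68.0, 42.1, 308 and 323 with surfactant, and the group means did not differ by test (log2 -0.48 ± 0.49, edgeR adjusted p = 0.54). Without animals 049 and 051 together the change was 1.27 and it was called higher (0.00442). DUSP1, a MAP kinase phosphatase that glucocorticoids are known to raise, was at 349, 483, 342 and 205 CPM against 37.2, 64.5, 251 and 138 (log2 1.49, edgeR adjusted p = 0.0555); it was called without budesonide animal 054 (0.0495) or surfactant animal 049 (0.0151). IL10 was at 1.57 to 5.40 CPM against 1.5 to 4.50 (log2 0.33, edgeR adjusted p = 0.614). The immediate early genes were lower in 5 of 37 (13.5%, median -1.01). That count was 21 without surfactant animal 007 and 8 without surfactant animal 032. It was 3 without animal 048 or 051, and 2 from the ventilated livers alone or without any 1 of animals 031, 050, 054 and 049; DESeq2 gave 14. ZFP36L1, a factor that destabilises cytokine transcripts, fell from 71.1 ± 22.3 to 30.3 ± 3.66 CPM (log2 difference -1.23, edgeR adjusted p = 0.00421), and RGS16, an inhibitor of G protein signalling, was at 24.0 to 57.0 CPM against 164, 461, 749 and 310 (log2 -3.23, edgeR adjusted p = 0.00179); both kept the call throughout.

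Few acute phase genes, which hepatocytes express in inflammation, differed. Of 26 such genes 1 was lower (3.85%, against 7.85% of all genes) and none higher, with a median of -0.44. That member was C3 (701 ± 55.1 to 414 ± 67.4 CPM, log2 -0.76, edgeR adjusted p = 0.0117, with 0.0368 from the ventilated livers alone and 0.0512 in the sex fit). The count was 4 without surfactant animal 051, 3 without 007 and 2 without budesonide animal 048 or 050; DESeq2 gave 5. CRP was at 3820, 3101, 4033 and 4492 CPM with budesonide and 1256, 3630, 3473 and 6438 with surfactant (log2 0.06 ± 0.35, edgeR adjusted p = 0.923), and the sign of this difference changed without animal 007 or 054. CP was at 1604 to 4311 against 1588 to 5814 CPM (log2 difference -0.21, edgeR adjusted p = 0.786), and HAMP, the iron hormone hepcidin, at 129 to 295 against 135 to 469 (log2 -0.51, edgeR adjusted p = 0.437). Unventilated livers held 272 ± 24.5 CPM of CRP and 31.7 ± 12.1 of CP. Complement and coagulation factors were lower in 11 of 57 (19.3%, median -0.46) and higher in 1, C5AR1, the receptor for C5a (17.5 ± 4.74 to 44.5 ± 5.39 CPM, log2 1.35, edgeR adjusted p = 0.00246). MASP1, a protease of the lectin pathway, fell from 101 ± 31.4 to 46.8 ± 6.68 CPM (log2 difference -1.12, edgeR adjusted p = 0.00743) and the plasminogen activator PLAU from 7.00 ± 0.891 to 3.27 ± 0.402 (log2 -1.10, edgeR adjusted p = 0.00262). C5AR1, MASP1 and PLAU kept the call throughout; the lower count was 6 without budesonide animal 031 and 7 without 048, 050 or 054 or from the ventilated livers alone (3 in the sex fit, 22 by DESeq2), and the higher count 2 without surfactant animal 049 or 051. BPI, a neutrophil granule protein that binds endotoxin, rose from 0.723 ± 0.300 to 5.62 ± 0.828 CPM with the call kept throughout (log2 2.95, edgeR adjusted p = 0.00058).

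Markers of leukocytes and Kupffer cells did not move as 1 block. Among all genes tested, 7.85% were lower and 4.01% higher. The shares of lower T, B and NK cell genes and of higher Kupffer cell genes given below were near these. Of 25 neutrophil and monocyte genes 6 were lower (24.0%, median -0.61), but 2 without budesonide animal 031 or 048 or in the sex fit and 3 without 050; FCGR3A and CYBB above were the pair that kept the call throughout. The receptor CSF3R, a defining marker of neutrophils, was at 7.04 to 8.42 CPM against 4.39 to 13.7 (log2 -0.31, edgeR adjusted p = 0.604). CD68, a lysosomal protein of macrophages, was at 63.8 to 104 CPM against 80.9 to 118 (log2 -0.34, edgeR adjusted p = 0.215). Of 24 Kupffer cell genes 3 were lower and 1 higher (12.5% and 4.17%, median -0.15), and the ventilated livers alone gave none in either direction. The lower count was 1 without budesonide animal 048 or surfactant animal 007 or 032. The higher count was 0 without any 1 of budesonide animals 031, 048 and 050 and surfactant animals 032 and 049, and 2 without 007 or 051; DESeq2 gave 2 higher and 5 lower. CLEC4F, a lectin of Kupffer cells, was at 14.0, 25.8, 20.7 and 29.6 CPM against 67.0, 48.3, 35.0 and 40.7 (log2 -1.08, edgeR adjusted p = 0.016), and missed the threshold in the ventilated livers alone (0.0509). The iron exporter SLC40A1 was at 126 to 364 CPM against 731, 834, 653 and 180 (log2 -1.48, edgeR adjusted p = 0.0359). SPIC, a factor of iron-recycling macrophages, was at 0 to 0.115 CPM against 0.0515 to 0.667 (log2 -2.65, edgeR adjusted p = 0.0465). The calls of SLC40A1 and SPIC each ended without any 1 of 6 or more animals, budesonide animals 031 and 048 and surfactant animals 032 and 049 among them. SLC11A1, an endosomal metal transporter of macrophages, went up, from 7.00, 6.36, 1.33 and 2.06 to 36.3, 22.5, 26.8 and 27.2 CPM (chosen after its values were seen; log2 2.75, edgeR adjusted p = 0.00487), and kept the call throughout. Of 22 T, B and NK cell genes 2 were lower (9.09%), 0 without budesonide animal 031 or 050 or from the ventilated livers alone, 1 without 048 or surfactant animal 049, 3 without surfactant animal 032, 4 without budesonide animal 054, 5 without surfactant animal 007 and 6 by DESeq2. Of 15 bile duct cell genes 5 were lower and none higher (33.3%, median -0.77), 2 without budesonide animal 031 or from the ventilated livers alone and 3 without 048, 050 or 054 or surfactant animal 049 or 051. CLDN4, a tight junction protein of those cells, was at 17.4 to 19.5 CPM against 25.1 to 63.3 (log2 -1.25, edgeR adjusted p = 0.00894; 0.0352 from the ventilated livers alone and 0.0504 in the sex fit). The mast cell protease TPSB2 fell from 21.2 ± 9.23 to 4.93 ± 2.39 CPM and kept the call throughout (log2 -2.10, edgeR adjusted p = 0.00689); tryptase genes have near copies, so reads may be shared.

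Of 28 endothelial genes 7 were lower (25.0%) and 1, PLVAP, was higher (median -0.51). The summed endothelial markers PECAM1, CDH5, KDR and STAB2 were at 330 to 357 CPM in the budesonide livers and 445 to 561 in the surfactant livers, with no overlap, while unventilated livers held 338 to 469. STAB2, the largest term of the sum, was not called and overlapped, at 134 to 185 against 153 to 267 CPM (log2 -0.31, edgeR adjusted p = 0.312). CDH5 was lower, at 87.4 to 115 against 114 to 180 CPM (log2 -0.54, edgeR adjusted p = 0.0396). PECAM1, a junction protein, was at 44.8, 43.0, 50.2 and 54.7 CPM against 68.6, 79.6, 106 and 117 (log2 -0.95, edgeR adjusted p = 0.00743). KDR, the main receptor for VEGF-A, was at 26.1 to 39.8 CPM against 61.5 to 81.9 (log2 -1.03, edgeR adjusted p = 0.00299), and MMRN2, an endothelial matrix protein, at 18.6 to 33 against 42.2 to 76.2 (log2 -1.12, edgeR adjusted p = 0.00821). PLVAP, which forms the diaphragms of endothelial fenestrae, rose from 69.4 ± 22.0 to 161 ± 22.7 CPM (log2 difference 1.21, edgeR adjusted p = 0.0056), as did the endothelial nitric oxide synthase adaptor NOSTRIN, at 12.9 to 19.2 against 0.978 to 3.45 (log2 3.12 ± 0.34, edgeR adjusted p = 0.00058). PECAM1, KDR, MMRN2, PLVAP and NOSTRIN kept the call throughout. What part the lower summed markers have in the calls of single endothelial genes was not tested. The lower count stayed between 5 and 10 when 1 animal was left out and was 4 from the ventilated livers alone, 3 in the sex fit and 12 by DESeq2.

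Of 40 TGF-beta, BMP, WNT and Notch genes 10 were lower and 1 higher (25.0% and 2.50%, median -0.41). The ventilated livers alone gave 2 lower and the sex fit 1, and the lower count was also 4 without budesonide animal 048, 5 without 031, and 6 without 050 or surfactant animal 032 or 049. DLL4, an endothelial Notch ligand, was at 8.85, 11.5, 10.4 and 9.58 CPM with budesonide against 25.6, 28.7, 67.6 and 20.6 with surfactant (log2 -1.82 ± 0.37, edgeR adjusted p = 0.0103). The Notch target HES1 was at 4.07, 7.05, 3.84 and 6.88 CPM against 9.45, 15.9, 35.8 and 10.1 (log2 -1.70, edgeR adjusted p = 0.0193). Its call ended without budesonide animal 031 or 050 (0.062 and 0.0527) and in the ventilated livers alone (0.0567). HEY1, another Notch target and the 1 higher member, moved the opposite way, at 91.5, 55.4, 98.0 and 31.1 CPM against 20.1, 8.52, 8.55 and 9.98 (5.86-fold; log2 2.55 ± 0.38, edgeR adjusted p = 0.0023). SMAD3, which carries the TGF-beta signal to the nucleus, fell from 390 ± 229 to 87.8 ± 25.4 CPM (log2 difference -2.15, edgeR adjusted p = 0.00545) and lost the call only in the sex fit (0.0529). Of the Notch receptors, chosen after their values were seen, NOTCH4 rose from 17.3 ± 4.27 to 50.9 ± 7.65 CPM (log2 difference 1.55, edgeR adjusted p = 0.000781). NOTCH1 and NOTCH3 fell, with overlapping ranges (log2 -1.55 and -0.65, edgeR adjusted p = 0.0303 and 0.0299), and each lost the call without any 1 of budesonide animals 031, 048 and 050 and surfactant animals 032 and 049, NOTCH1 also without 051.

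Further vascular genes were chosen after their values were seen. TMEM100, a BMP-induced endothelial protein, fell from 10.4 ± 4.39 to 1.96 ± 0.259 CPM (log2 difference -2.40, edgeR adjusted p = 0.000893). The lymphatic and sinusoidal VEGF receptor FLT4 fell from 53.9 ± 8.02 to 18.6 ± 5.59 CPM (-1.53, edgeR adjusted p = 0.00176) and the apelin receptor APLNR from 41.6 ± 18.0 to 6.80 ± 5.26 (-2.61, edgeR adjusted p = 0.00853). BMP10, a ligand of endothelial BMP receptors, was at 1.69, 5.16, 3.20 and 0.965 CPM against 4.73, 41.9, 98.6 and 8.44, with 1 overlapping animal in each group (log2 -3.79, edgeR adjusted p = 0.0141). DLL4, HEY1, NOTCH4 and these 4 kept the call throughout.

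**Figure D4:**
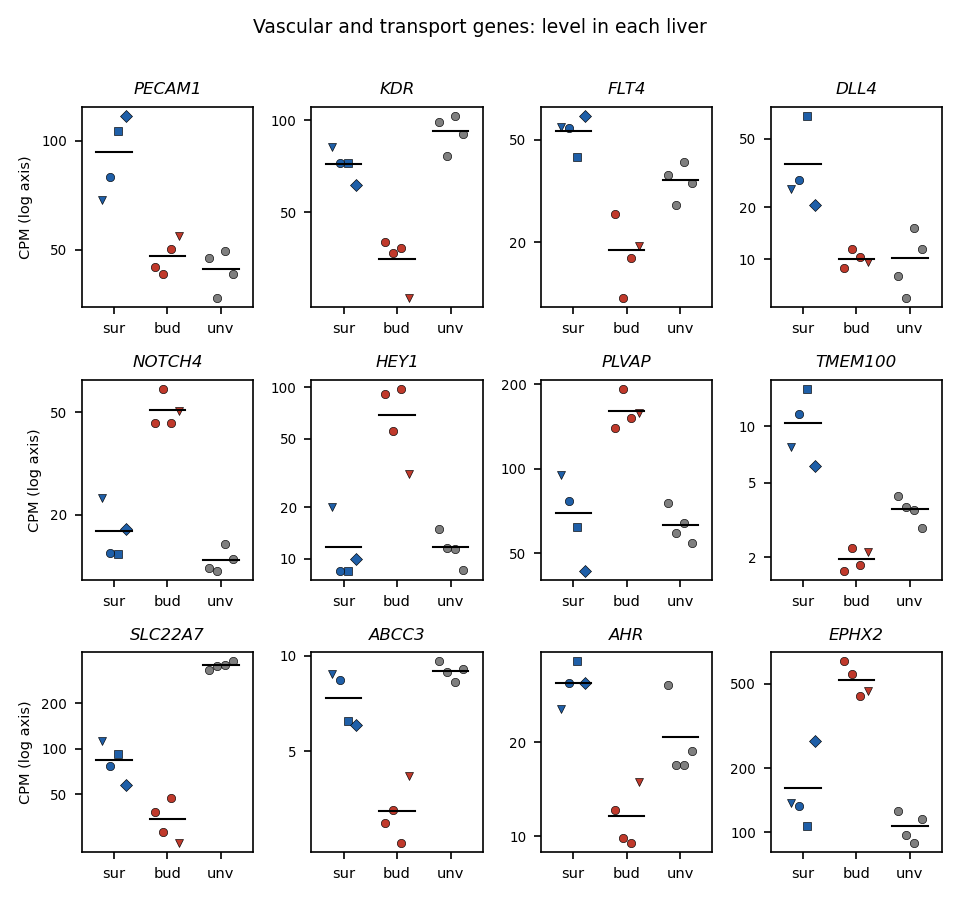
Level of 8 vascular genes (upper panels) and 4 transport and drug metabolism genes (lowest row) in CPM on log axes, in surfactant (sur, blue), budesonide (bud, red) and unventilated (unv, grey) livers. Each symbol is 1 liver, with triangles for the males 007 and 054, and bars are group means. NOTCH4, HEY1, PLVAP and EPHX2 are higher and the other 8 genes lower in all 4 budesonide livers than in any surfactant liver.

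Genes of stellate cells and fibroblasts, which store retinoids and lay down matrix, had 5 of 43 members lower and 1 higher (median -0.24). These are 11.6% and 2.33%, against 7.85% and 4.01% of all genes. There were 10 lower without surfactant animal 007, 2 higher without 049, and 0 higher without budesonide animal 031, 048, 050 or 054 or surfactant animal 032. HGF, the hepatocyte growth factor these cells secrete, was at 29.2, 30.7, 33.9 and 23.7 CPM against 46.6, 96.9, 109 and 111 (log2 -1.63 ± 0.24, edgeR adjusted p = 0.00184). Its receptor MET, chosen after its values were seen, fell as well, from 89.3 ± 26.8 to 30.6 ± 12.1 CPM (log2 difference -1.54, edgeR adjusted p = 0.00675). The membrane protease MMP14 fell 2.12-fold (log2 -1.08, edgeR adjusted p = 0.00158). NGFR, a neurotrophin receptor that stellate cells carry, was at 14.4, 9.69, 9.60 and 11.9 CPM against 138, 83.1, 23.6 and 21.3 (log2 -2.54, edgeR adjusted p = 0.00935); animals 007 and 032 were the high ones here, the reverse of the cytokine genes. The matrix protein THBS2, chosen after its values were seen, fell from 148 ± 76.5 to 28.7 ± 5.40 CPM (log2 difference -2.36, edgeR adjusted p = 0.00168). These 5 kept the call throughout. The stellate markers DES, PDGFRB and DCN were not called and summed to 147 to 200 CPM against 161 to 237.

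Growth, clock and thyroid genes gave single clear members. IGFALS, which holds insulin-like growth factors in plasma, was at 7.04, 3.61, 4.77 and 4.31 CPM against 16.3, 17.2, 12.9 and 7.77, where unventilated livers held 84.7 ± 25.2 (log2 -1.46, edgeR adjusted p = 0.00949). IGF2, the main growth factor of the fetus, fell from 901 ± 189 to 489 ± 78.9 CPM (log2 difference -0.88, edgeR adjusted p = 0.0136) and lost the call only in the sex fit (0.0633, against 0.048 from the ventilated livers alone). IGF1 was at 66.7, 42.5, 30.4 and 26.8 CPM against 52.3, 107, 80.2 and 69.1 (log2 -0.89, edgeR adjusted p = 0.0672) and was called without budesonide animal 031 (0.0292) or surfactant animal 007 (0.0336). CRY2, a repressor of the clock, was at 39.8, 28.5, 32.4 and 13.3 CPM against 11.2, 2.46, 2.61 and 2.52 (log2 2.60 ± 0.49, edgeR adjusted p = 0.0072). DIO3, which inactivates thyroid hormone in the fetus, was at 26.0, 15.3, 9.83 and 16.7 CPM against 0.612, 4.38, 4.0 and 3.14 (log2 2.48, edgeR adjusted p = 0.0086), while DIO1, which activates it in liver, was at 159 to 313 against 174 to 285 (log2 -0.06, edgeR adjusted p = 0.902). IYD, which recovers iodide and was chosen after its values were seen, fell from 28.8 ± 14.8 to 8.50 ± 2.79 CPM (log2 difference -1.76, edgeR adjusted p = 0.0136). IGFALS, CRY2, DIO3 and IYD kept the call throughout. The growth axis list had 3 of 38 higher and 4 lower (7.89% and 10.5%, against 4.01% and 7.85% of all genes). The ventilated livers alone gave 1 and 2. The higher count was 0 without budesonide animal 048 or surfactant animal 049 and 1 without 031 or 032. The lower count was 2 without 048, 050 or 049 and 11 without 007.

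Few or no ribosomal, oxidative phosphorylation, heat shock and cell cycle genes were called, while some proteasome and erythroid genes were higher. None of 53 cytosolic ribosomal protein genes (median -0.004) and none of 28 oxidative phosphorylation genes (median 0.06) was called by edgeR. At an unadjusted p under 0.05 there were 2 of the ribosomal genes and 0 of the others, and DESeq2 called 2 ribosomal genes lower; without surfactant animal 007 edgeR did so too. None of 22 heat shock and cold-inducible genes was called (3 at an unadjusted p under 0.05, 1 by DESeq2), with a median of -0.36; without surfactant animal 007 edgeR called 1 higher and 1 lower. HSPA1A ranged from 30.3 to 463 CPM with budesonide and from 16.5 to 705 with surfactant, wider within the groups than between them. Of 55 cell cycle genes 1 was lower and 1 higher (1.82% each, against 7.85% and 4.01% of all genes), with a median of 0.37. The lower count was 0 without any 1 of animals 031, 048 and 049, 2 without 007 and 3 without 051. The 1 higher member was CDKN1B, the inhibitor p27, which rose from 52.8 ± 7.14 to 95.8 ± 15.7 CPM and kept the call throughout (log2 0.86, edgeR adjusted p = 0.00573). MKI67 was at 333 to 608 CPM against 183 to 507 (log2 0.67, edgeR adjusted p = 0.34). Of 31 proteasome subunit genes 5 were higher (16.1%, against 4.01% of all genes, median 0.24) and none lower. The higher count was 0 without surfactant animal 032 or in the sex fit. It was 1 from the ventilated livers alone or without any 1 of animals 031, 048 and 049. It was 2 without budesonide animal 050, 8 without surfactant animal 051, 9 without 049 and 051 together and 6 by DESeq2. Erythroid genes of the fetal liver had the highest median of the lists, 0.90, with 2 of 26 called higher (7.69%, against 4.01% of all genes). These were the haem synthesis enzyme UROD (log2 0.90, edgeR adjusted p = 0.0458) and the mitochondrial carrier SLC25A38 (log2 0.78, edgeR adjusted p = 0.0214). The count was 0 without any 1 of budesonide animals 031 and 048 and surfactant animals 032 and 049, 1 without 054, 007 or 051, 3 without 050, and 10 by DESeq2. ALAS2, the first enzyme of erythroid haem synthesis, was at 332, 456, 249 and 837 CPM against 106, 302, 237 and 188 (log2 1.17 ± 0.51, edgeR adjusted p = 0.147). The summed erythroid markers were 724 to 1836 CPM with budesonide and 355 to 935 with surfactant, overlapping.

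**Figure D5:**
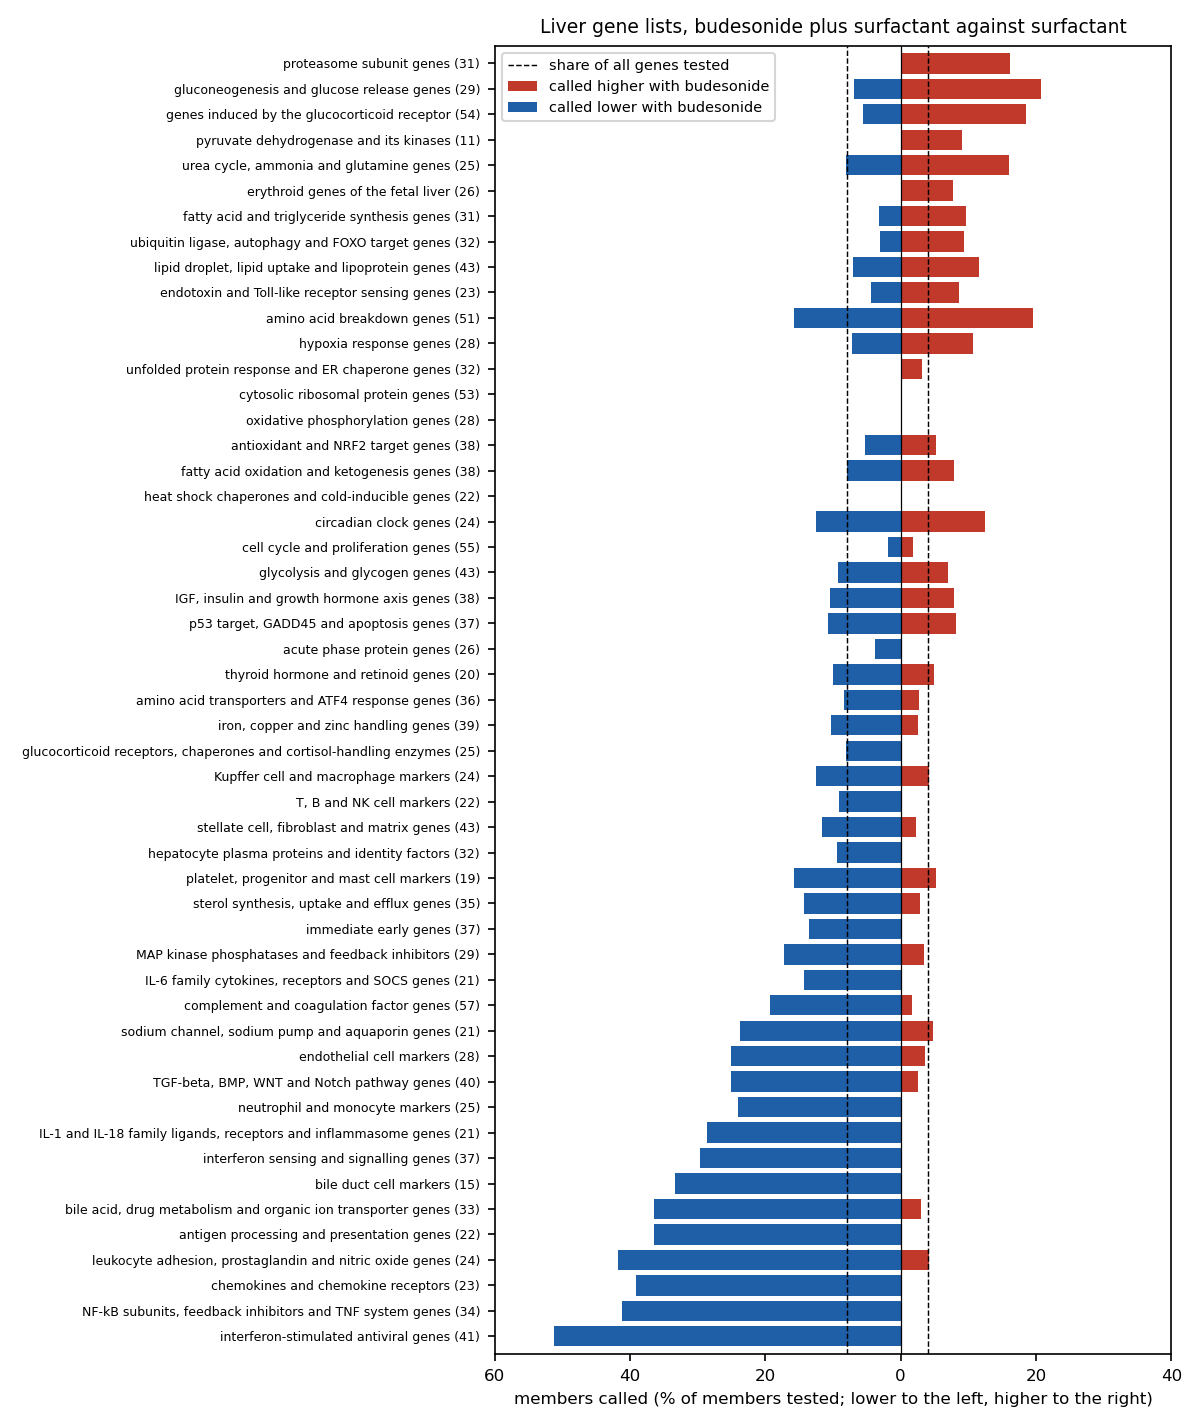
Share of each of 51 gene lists called between the ventilated groups. Bars give the percent of members tested that were called higher (red, right) or lower (blue, left) with budesonide, the number tested stands in brackets, and dashed lines mark the 4.01% and 7.85% of all genes. Interferon-stimulated, adhesion, NF-kB, chemokine, antigen presentation and drug transport lists extend farthest left, and glucose release, amino acid and glucocorticoid-induced lists farthest right.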

How the data were processed

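Gene counts from poly(A)-selected, paired-end liver libraries were used as deposited by the authors, 1 count table for 12 livers; Bowtie2, featureCounts and edgeR are named in the submitters' processing notes, and their versions and the genome build are not stated there. Of 27716 entries, 16824 passed edgeR's filterByExpr. Counts were scaled by TMM and fitted with edgeR 4.0.16 (R 4.3.3, limma 3.58.1; robust quasi-likelihood test, 3 groups, 12 livers; common biological coefficient of variation 0.304), with Benjamini-Hochberg adjustment over all genes tested and a threshold of 0.05. Levels are TMM-scaled CPM. The log2 changes are those fitted by edgeR at its default prior count, and SE is the change divided by the square root of F. A prior count of 2 was used for the log2 CPM behind the principal components and Dixon's criterion, not for these changes. Of 11628 entries with locus identifiers, 508 were named through RefSeq symbols. The 23 entries whose symbols had become dates stayed unnamed. Named genes were the called genes, with ranges apart, of largest change or smallest p (up to 12 a direction), up to 4 called members a direction in each of 51 lists, and preset genes; others are said to be chosen after their values were seen. Members and lists were chosen with earlier results of these data known. Alternatives were DESeq2 1.42.0, other scaling, no filter, ventilated livers alone, and the same with sex as a covariate. Others left out the ventilated males (comparing the 126-day females, unventilated livers kept), each animal, and animals 049 and 051. The scripts were tested on simulated data. The labels do not say whether lambs shared a ewe. Brain white matter was not analysed here.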

Additional observations from a re-analysis of the deposited data

Results flagged for a closer look

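Dixon's criterion marks a sample that lies far from the other 3 of its group relative to the group's range, and chance marks about 1 in 20 groups. Over the genes named here, IL6 and CXCL8 left out, it marked 17 of 280 groups. Budesonide animal 054, the male, was lowest in PER1 (63.4 CPM against 98.4 to 101) and IGF2 (371 against 526 to 533) and highest in GLUL (422 against 330 to 341). Budesonide animal 050 was highest in WIPF3 (99.5 against 77.9 to 81.1), THBS2 (36.8 against 25.4 to 26.8) and MET (48.8 against 24.3 to 25.1) and lowest in AQP8 (41.7 against 63.8 to 69.5). Budesonide animal 031 was highest in IL1B (3.43 against 1.20 to 1.35), and 048 lowest in CTH (65.6 against 156 to 160). Surfactant animal 051 was lowest in IGF2 (619 against 971 to 1017), SLCO2B1 (31.0 against 61.8 to 67.0), NOTCH3 (10.4 against 13.7 to 14.5) and SLC40A1 (180 against 653 to 834) and highest in MX2 (31.2 against 16.3 to 17.9). Surfactant animal 007, the male, was highest in CRY2 (11.2 against 2.46 to 2.61) and lowest in HGF (46.6 against 96.9 to 111). Surfactant animal 032 was highest in AFP, the fetal albumin (2071 against 727 to 817).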

How the results depend on the processing

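The counts of 674 genes higher and 1320 lower rest on the spread within 3 groups of 4 livers, the unventilated group included. Library totals were 16.1 to 23.2 M counts. DESeq2 called 1123 higher and 2047 lower. The 8 ventilated livers alone gave 288 and 596, and the same livers with sex as a covariate 223 and 409. Without the males of the ventilated groups, 1210 genes were higher and 1788 lower. That fit compared the 126-day females of these groups and kept the unventilated livers. Leaving out 1 animal at a time gave 325 to 1074 higher and 682 to 1790 lower. The fits of ventilated livers alone and of single omissions hold fewer samples, and the single omissions moved the counts both up and down. The cause of these moves was not tested. Median-ratio scaling (649 and 1373), no filter on low counts (570 and 1107) and omission of animals 049 and 051 together (805 and 1172) stayed within 1.5 times. No called gene was called in the opposite direction under any alternative. Of the 102 list counts (51 lists, each direction), DESeq2 moved 49 up by over 1.5 times and none down, the ventilated livers alone moved 49 down and 1 up, and the sex fit 62 down and 1 up. Without animals 049 and 051 together 18 moved down and 20 up.

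Besides IL6 and CXCL8 above, 10 of the genes named changed sign under an alternative. NFKBIA was the 1 of these 10 called in any, at 1.27 without animals 049 and 051 together. The same omission gave 0.142 for HSD11B1, 0.32 for HAMP, 0.053 for CP and 0.456 for HSPA1A. The fit without the ventilated males gave -0.31 for CRP, -0.214 for IL10 and 0.181 for DIO1, and the sex fit -0.008 for PCK1. Without 1 animal at a time the log2 change ranged from -0.253 to 0.036 for HSD11B1, -0.09 to 0.365 for PCK1, -0.54 to 0.299 for AFP and -0.226 to 0.441 for CRP. It ranged from -0.523 to 0.232 for CP, -0.023 to 0.728 for IL10, -0.255 to 0.075 for DIO1 and -1.525 to 0.398 for HSPA1A. Called genes whose fold moved by over 1.5 times without animals 049 and 051 together, besides IL1B, BCL3 and CXCL10, went to -4.07 for OLR1, -0.71 for IRF8, -0.90 for CIITA, -1.36 for PTGS2, -0.79 for BIRC3, -1.53 for TNF, -1.25 for GBP5, -0.46 for SAT1, -1.43 for SMAD3, -0.90 for NOTCH1, -1.68 for THBS2, -3.08 for BMP10 and 2.08 for SLC11A1. The folds of OSR2 (5.30), ARG2 (2.58), NGFR (-3.27), GNMT (3.39), NAGS (2.91) and SOAT2 (-3.61) were larger there. Single animals moved a fold as much for GHRHR (4.48) and G6PC (2.22) without 031, APLNR (-3.29) without 048, and FABP4 (5.22), NGFR (-1.90), SOAT2 (-2.28) and CRY2 (3.49) without 007. Without 049 they did so for OLR1 (-5.94), PTGS2 (-5.08), NAGS (2.61), SAT1 (-0.75), BIRC3 (-2.64) and BMP10 (-2.76), and without 051 for IL1B (-4.96), BCAT2 (3.64) and GNMT (3.54).

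No paired analysis was possible because the budesonide and surfactant groups share no animal numbers.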
